A study of Mus musculus with 4 samples.

Results

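The genes described here are 10 regulators of apoptosis: the anti-apoptotic *Bcl2*, *Bcl2l1* (Bcl-xL) and *Mcl1*, the pore-forming *Bax* and *Bak1*, the BH3-only *Bcl2l11* (Bim), *Bid* and *Bmf*, and the inhibitors of apoptosis *Xiap* and *Birc2* (cIAP1). They were found through the accession of each array probe, which matched 12 probes to these 10 genes among 39429 probes and 20832 named genes. The cells were B16-F10, a mouse malignant melanoma line grown in RPMI medium with fetal bovine serum. A cell sorter divided them by the amount of the receptor Met on the cell surface into Met-low and Met-high cells, which were then kept apart in culture for 3 days without any further agent. There were 2 independent RNA samples per population, each labelled with Cy3 on a one-colour Agilent array of its own, 4 arrays in all. The p-values below measure the spread between these samples, which may be partly technical.

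Bcl2 family proteins decide whether the outer membrane of the mitochondrion stays intact. Bax and Bak1 open pores in it, Bcl2, Bcl-xL and Mcl1 hold them back, and BH3-only proteins either engage the pore formers or occupy the protectors. Cytochrome c that leaves through the pores switches on caspases, which Xiap inhibits, while Birc2 is a ubiquitin ligase that acts downstream of tumour necrosis factor receptors. Melanocytes and melanoma cells are known for their dependence on Bcl2, Bcl-xL and Mcl1.

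All 4 arrays lay on the same slide, with each population at positions of its own, so position on the slide and population cannot be told apart. Each array's 75th percentile of intensity lay between 858 and 1331, and 50.01% to 53.6% of spots were well above background. Values below are the log2 signal, which is the log2 of the background-corrected intensity minus that of the array's 75th percentile. A log2 ratio is the mean log2 signal of the Met-high arrays less the mean of the Met-low arrays. Limma compared the 11958 genes detected well above background in 1 or both populations, on both arrays there, each by its brightest probe, with Benjamini-Hochberg adjustment. With 2 arrays per population, the precision is low. The 8 melanocyte markers examined, among them *Mitf*, *Sox10* and *Tyrp1*, were well above background on all arrays. Of 22 markers of fibroblasts, leukocytes, endothelium and keratinocytes, 8 passed the filter, whereas *Lum*, *Ptprc*, *Cdh5*, *Tek* and *Krt1* were well above background on no array. Well above background on all arrays were *Col1a2*, *Cd3e*, *Itgam*, *Csf1r*, *Kdr* and *Vwf*. Of those 8, only *Col1a2* passed the test, with a log2 ratio of -1.10 (adjusted p = 0.031, limma). It no longer did when every probe was compared by itself (adjusted p = 0.0574, limma) or without a filter on dim probes (0.158). Its log2 ratio was -0.97 without Met-low replicate 2 and -1.04 without Met-high replicate 1. *Itgam* had a log2 ratio of -0.65 on its brightest probe (adjusted p = 0.188, limma). Its other probes were well above background on only 1 array per population. The summed relative signals were 0.63 and 0.69 in Met-low against 0.36 and 0.32 in Met-high cells for the fibroblast list, 6.41 and 5.60 against 8.58 and 6.89 for the endothelial list, and 5.59 and 6.23 against 6.62 and 5.25 for the leukocyte list. The part of other cells in the results was not tested. In RNA from a population of cells, fewer expressing cells and less RNA per cell cannot be told apart. *Met* itself had log2 signals of -0.26 and -0.89 in Met-low and of 1.03 and -0.43 in Met-high cells, so that Met-high replicate 2 lay between the Met-low arrays.

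Between Met-low and Met-high cells none of the 10 genes passed an adjusted p under 0.05 in limma, against 5.77% of all genes compared. At an unadjusted p under 0.05 there were 2 of the 10, *Bak1* and *Bid*, against 26.2% of all genes. Among the 9 members well above background on every array, 0 had means more than 2-fold apart. The share was 7.73% over all 11958 genes compared, a set that includes genes dim in 1 population. The measured log2 ratios ran from -0.68 for *Bid* to 0.71 for *Bak1*, with 7 below and 3 above 0 and a median of -0.20, while the median of all genes was 0.10. The smallest difference that passed in any gene was 0.80 on the log2 scale, larger than the measured difference of every member. On the brightest probe, the 95% interval of the log2 ratio stayed within 2-fold in either direction for 6 of those 9 members. The exceptions were *Bak1*, *Bid* and *Bmf*. The other probe of *Bcl2l1* had a wider interval, from -1.58 to 0.81, which reached past 2-fold. The member outside those 9, *Bcl2l11*, passed the filter through its Met-high arrays alone and has only a bound in Met-low cells.

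**Figure D1:**
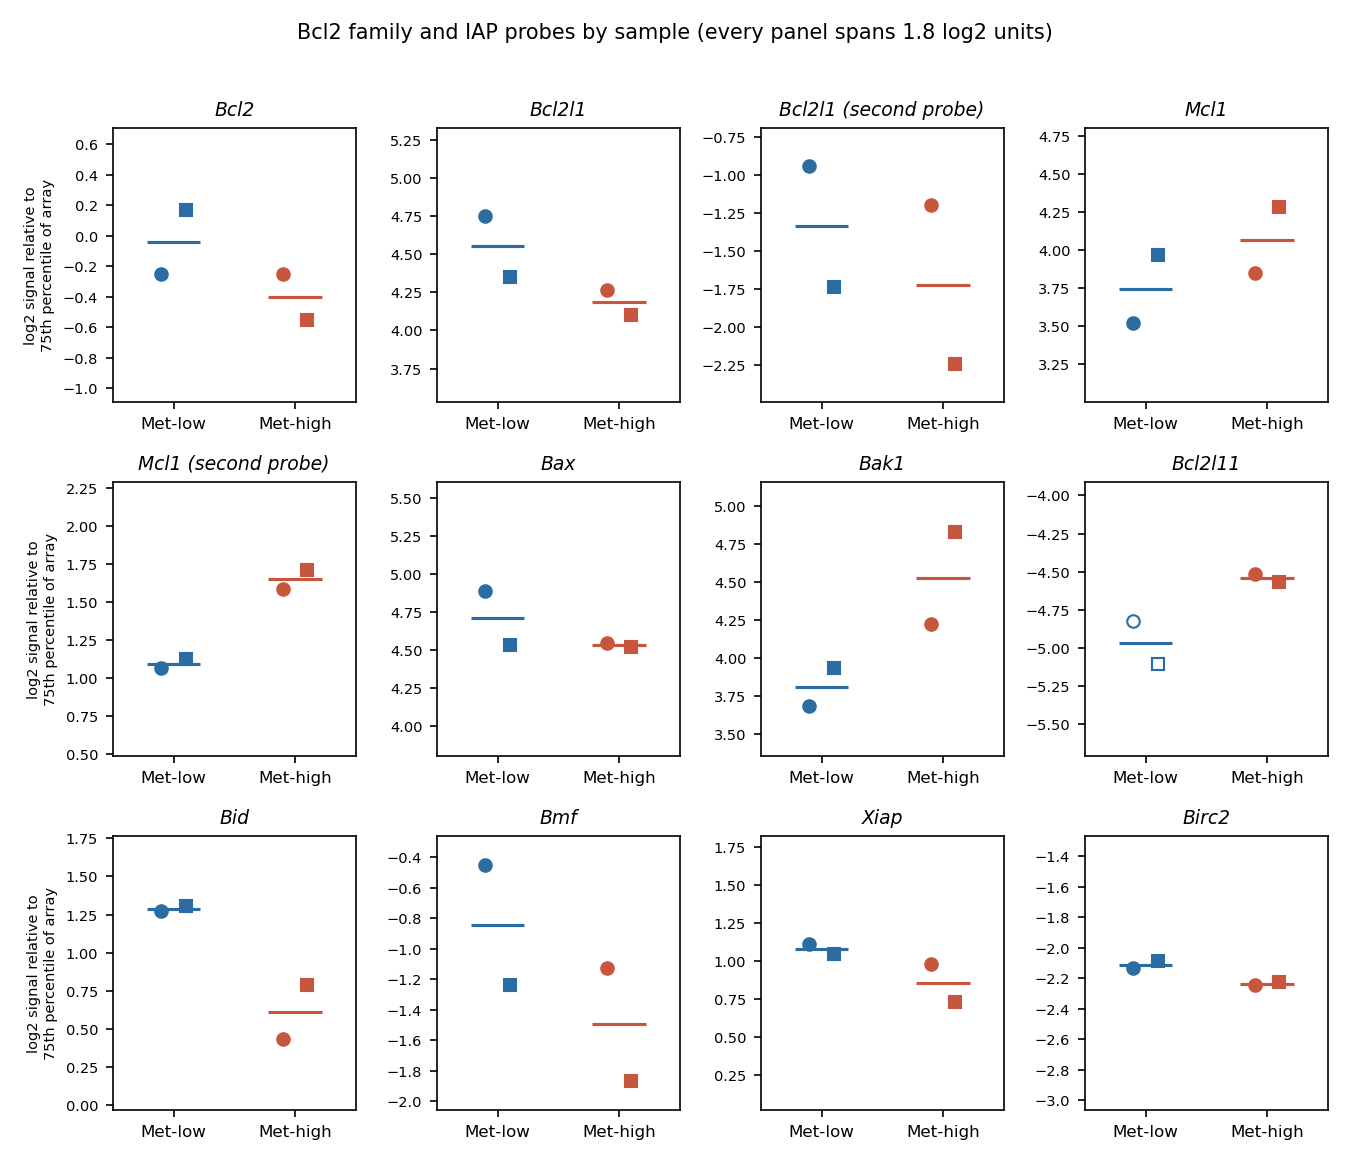
Log2 signal of the 12 probes of the 10 genes (y axis, relative to the 75th percentile of the array) in Met-low and Met-high cells, with a circle for replicate 1, a square for replicate 2, a line for the mean of 2 arrays and open symbols where neither array of a population was well above background. The arrays of the populations do not overlap for *Bak1*, *Bid*, *Bcl2l11*, *Xiap*, *Birc2*, the brightest *Bcl2l1* probe and the other *Mcl1* probe.

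The pore-forming effectors had ratios of opposite sign, and neither passed the test. *Bak1*, the effector resident on mitochondria, had intensities of 12154 and 20360 on the Met-low and of 16053 and 31551 on the Met-high arrays. Relative to the 75th percentile these were log2 signals of 3.69 and 3.93 in Met-low against 4.23 and 4.83 in Met-high cells. Both Met-high arrays were thus above both Met-low arrays, with means of 3.81 ± 0.17 (SD, n = 2) and 4.53 ± 0.43 (SD, n = 2). The log2 ratio was 0.71 (standard error 0.25, 95% interval 0.08 to 1.35), a 1.64-fold higher mean in Met-high cells that did not pass the adjustment (adjusted p = 0.157, limma). Its size rested on the Met-high arrays, being 0.41 without Met-high replicate 2 and 1.02 without Met-high replicate 1 (adjusted p = 0.0565).

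*Bax*, the effector that moves to mitochondria from the cytosol, had intensities of 27937 and 30832 in Met-low and of 20029 and 25501 in Met-high cells. Its log2 signals were 4.89 and 4.53 in Met-low and 4.54 and 4.52 in Met-high cells. Met-low replicate 2 was at the level of both Met-high arrays, and only Met-low replicate 1 was higher. The log2 ratio of *Bax* was -0.18 (standard error 0.19, 95% interval -0.65 to 0.29, adjusted p = 0.577), and it became -0.001 when Met-low replicate 1 was left out. Whether *Bak1* and *Bax* differed from each other in their response was not tested.

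Of the anti-apoptotic genes, *Bcl2* and *Bcl2l1* had a lower and *Mcl1* a higher mean in Met-high cells. *Bcl2*, the founding member, had intensities of 790.1 and 1493 in Met-low and of 722 and 758 in Met-high cells, or log2 signals of -0.25 and 0.17 against -0.25 and -0.55. Met-low replicate 1 and Met-high replicate 1 were almost equal, so that the populations overlapped. The log2 ratio was -0.36 (standard error 0.22, 95% interval -0.91 to 0.20, adjusted p = 0.355), and -0.15 without Met-low replicate 2.

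*Bcl2l1* encodes Bcl-xL, which holds Bax in the cytosol, and had 2 probes of the same accession. The brightest gave log2 signals of 4.75 and 4.35 in Met-low against 4.26 and 4.10 in Met-high cells, from intensities between 16476 and 27117. Each Met-low array was above each Met-high array, and the log2 ratio was -0.37 (standard error 0.20, 95% interval -0.88 to 0.14, adjusted p = 0.308). It ranged from -0.16 without Met-low replicate 1 to -0.57 without Met-low replicate 2. The other probe, at intensities of 491 and 399.9 in Met-low and of 374 and 235 in Met-high cells, gave -0.38 with a wider standard error of 0.45. On that probe the populations overlapped, since replicate 2 was lower than replicate 1 in each of them, at -1.74 against -0.94 in Met-low and at -2.24 against -1.20 in Met-high cells.

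*Mcl1*, a protector with a short-lived messenger RNA and protein, also had 2 probes. The brightest read 10787 and 20807 in Met-low and 12339 and 21637 in Met-high cells, or log2 signals of 3.52 and 3.97 against 3.85 and 4.28. Here replicate 2 was above replicate 1 in each population, the populations overlapped, and the log2 ratio was 0.32 (standard error 0.25, 95% interval -0.30 to 0.94, adjusted p = 0.443). It was 0.10 without either Met-low replicate 1 or Met-high replicate 2 and 0.55 without Met-low replicate 2. The other probe read 1974 and 2906 in Met-low and 2576 and 3640 in Met-high cells, which gave log2 signals of 1.07 and 1.13 against 1.59 and 1.71. On it the replicates lay close together, and both Met-high arrays were above both Met-low arrays. Its log2 ratio was 0.55 (standard error 0.16, adjusted p = 0.148, limma over 19796 probes). When every probe was compared by itself, none of the 12 member probes passed an adjusted p under 0.05, against 2.63% of all probes compared, and 3 of the 12, of *Bak1*, *Bid* and *Mcl1*, had an unadjusted p under 0.05, against 22.5% of all probes.

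Of the BH3-only genes, *Bid* and *Bmf* had lower means in Met-high cells, and neither passed the test. Only *Bcl2l11*, well above background on neither Met-low array, had a higher measured mean there. *Bid*, which caspase-8 cleaves to link death receptors to mitochondria, had the lowest log2 ratio of the 10. Its intensities were 2282 and 3285 in Met-low and 1159 and 1914 in Met-high cells, or log2 signals of 1.28 and 1.30 against 0.43 and 0.78. The Met-low arrays nearly coincided and both were above the Met-high arrays, at 1.29 ± 0.02 (SD, n = 2) against 0.61 ± 0.25 (SD, n = 2). The mean was 1.60-fold higher in Met-low cells, a log2 ratio of -0.68 (standard error 0.19, 95% interval -1.15 to -0.21), which did not pass the adjustment (adjusted p = 0.103, limma). Leaving out single arrays gave *Bid* log2 ratios between -0.86 and -0.51.

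*Bmf*, a BH3-only gene tied to the actin cytoskeleton and loss of attachment, had a log2 ratio close to that of *Bid* but a wide spread. Its intensities were 689.8 and 564 in Met-low and 393.5 and 305 in Met-high cells, and the log2 signals were -0.45 and -1.24 against -1.13 and -1.86. Met-low replicate 2 was below Met-high replicate 1, so the populations overlapped. In each population replicate 2 was below replicate 1. The log2 ratio was -0.65 (standard error 0.36, 95% interval -1.57 to 0.27, adjusted p = 0.315). It ranged from -1.05 without Met-low replicate 2 to -0.26 without Met-low replicate 1. With the replicate number added to the fit, the standard error was 0.10, though the labels do not state a shared preparation.

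*Bcl2l11* encodes Bim, which binds all protectors of the family. Its probe was close to the limit of detection, with intensities of 33.2 and 38.6 in Met-low and of 37.6 and 46.7 in Met-high cells. It was well above background on both Met-high and on neither Met-low array, so it entered the comparison only because of the population where it was higher. The measured log2 signals were -4.83 and -5.11 in Met-low and -4.51 and -4.57 in Met-high cells, and the measured log2 ratio was 0.43 (adjusted p = 0.203, limma). The bound for Met-low was, per array, the lowest signal of any probe well above background or the probe's own if higher. Against it the Met-high mean of *Bcl2l11* was 1.195-fold higher, a value that was not itself tested.

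Both inhibitors of apoptosis had slightly lower means in Met-high cells, and neither passed the test. *Xiap*, a direct inhibitor of caspases, read 2039 and 2744 in Met-low and 1695 and 1843 in Met-high cells, or log2 signals of 1.11 and 1.04 against 0.98 and 0.73. *Birc2* read 215 and 314 against 182 and 237, or log2 signals of -2.13 and -2.09 against -2.24 and -2.23. In both genes the Met-low arrays were above the Met-high arrays. The log2 ratio of *Xiap* was -0.22 (standard error 0.17, 95% interval -0.66 to 0.21, adjusted p = 0.448), or -0.10 if Met-high replicate 2 was left out. *Birc2* had a log2 ratio of -0.12 (standard error 0.15, 95% interval -0.51 to 0.26, adjusted p = 0.638), and quantile normalization turned it to 0.01. Arrays without overlap were frequent in these data, at 58.3% of all genes compared, beside 6 of the 10 members. Of these 6, 4 had both Met-low arrays above (22.6% of all genes) and 2 both Met-high arrays above (35.7% of all genes). The latter were *Bak1* and *Bcl2l11*, of which *Bcl2l11* was dim on both Met-low arrays.

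**Figure D2:**
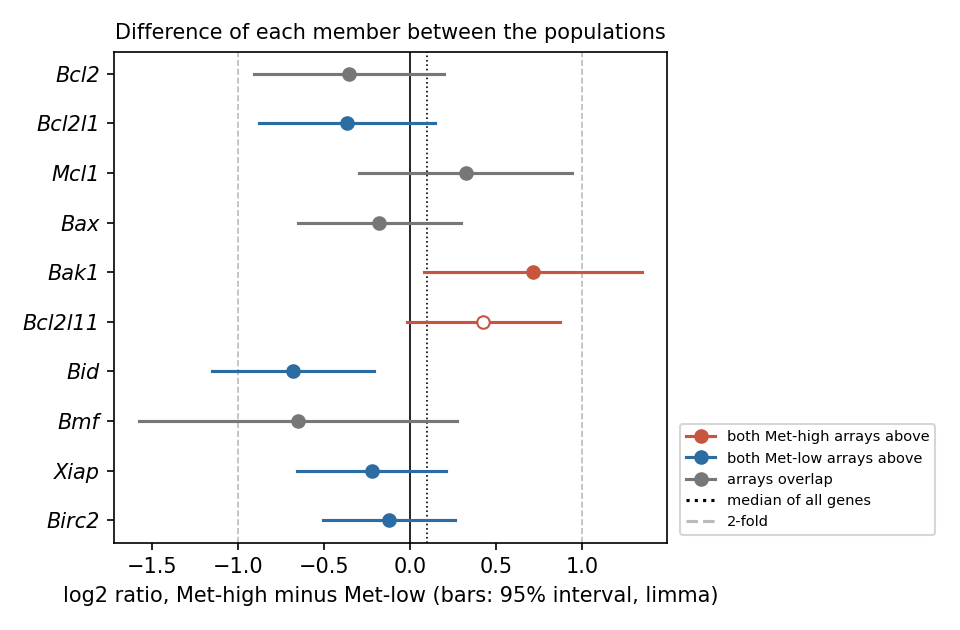
Log2 ratio of each of the 10 genes, Met-high minus Met-low (x axis), with its 95% interval from limma, where colours give the order of the arrays and the open symbol is *Bcl2l11*, dim on both Met-low arrays. All measured values lie between the dashed 2-fold lines, and the intervals of *Bak1* and *Bid* alone leave out 0.

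Mitf, the master regulator of melanocytes, binds the E-box CACGTG and its variant CATGTG, and *Bcl2* is among its known targets. *Mitf* had log2 signals of 5.35 and 5.49 in Met-low and of 5.30 and 5.26 in Met-high cells, with a ratio of -0.14 on the log2 scale (adjusted p = 0.613, limma). The 250 bases before each annotated start of the members were searched for these motifs on both strands, with CACATG as the reverse complement of the variant, in 18 windows taken from RefSeq (GRCm38.p6) that covered all 10 genes. A match was found in 3 of the 18 windows, 16.7%, beside 17.6% of 32851 windows of all genes, and the windows of *Bcl2* and *Mcl1* held none. The matches were in *Bax*, in *Birc2* and in a window of *Bcl2l1*. The windows of *Bax* (chr7:45466899-45467148, minus strand) and *Bcl2l1* (chr2:152828490-152828739, minus strand) are shown because they belong to an effector and a protector that bind each other, with the E-box in capitals.
Bax: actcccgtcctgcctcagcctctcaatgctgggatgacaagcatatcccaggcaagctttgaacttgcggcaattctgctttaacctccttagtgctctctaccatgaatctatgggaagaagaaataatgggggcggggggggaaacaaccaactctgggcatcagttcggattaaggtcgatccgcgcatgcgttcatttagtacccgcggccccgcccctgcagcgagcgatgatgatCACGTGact
Bcl2l1: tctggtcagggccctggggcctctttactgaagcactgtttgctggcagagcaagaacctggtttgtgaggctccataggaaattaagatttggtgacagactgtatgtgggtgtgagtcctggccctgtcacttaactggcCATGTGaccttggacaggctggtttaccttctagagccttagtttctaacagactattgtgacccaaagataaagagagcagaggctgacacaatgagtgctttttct
In *Bax* the motif CACGTG ended 3 bases before the annotated start, and in *Bcl2l1* CATGTG ended 102 bases before it. Neither gene differed between the populations at an adjusted p under 0.05, and no binding was measured here.

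The rest of the pathway was examined in 8 lists of 75 genes, 73 of which had a named probe and 52 of which passed the filter. At an adjusted p under 0.05, 1 gene rose and 1 fell in Met-high cells, beside 1.95% of all genes that rose and 3.82% that fell. The median log2 ratio of the 52 genes was 0.14, next to 0.10 for all genes and -0.20 for the members. The genes left out by the filter included *Pmaip1* (Noxa), *Bik*, *Hrk*, *Birc3*, *Fas* and *Casp12*.

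*Bok*, which resembles Bax and Bak1 and can open the mitochondrial membrane on its own, had log2 signals of -3.44 and -3.34 in Met-low and of -1.63 and -1.41 in Met-high cells. It was well above background on all arrays and rose by 1.87 on the log2 scale (standard error 0.17, adjusted p = 0.00922, limma), or 3.66-fold. With every array left out in turn it still passed, at log2 ratios between 1.76 and 1.98, the lowest of them without Met-high replicate 2. Without a filter on dim probes, its adjusted p was 0.0792. *Bcl2l14* (Bcl-G), a relative with a BH3 region, had log2 signals of -3.35 and -3.99 in Met-low and of -5.47 and -6.40 in Met-high cells, where neither array was well above background. It therefore passed the filter only through the population where it was higher. The measured log2 ratio was -2.26 (adjusted p = 0.0363, limma). By the same kind of bound, which was not itself tested, the Met-low mean was 2.69-fold higher or more on the intensities used here. Among genes well above background on all arrays, *Bok* was the 1 gene of the lists called. The call of *Bcl2l14* was lost when every probe was compared by itself (adjusted p = 0.0689, limma) and without a filter (0.159). It was also lost after normexp background correction (0.132), which reduced the log2 ratio from -2.26 to -0.68, a smaller difference than the bound. The other probe of *Bcl2l14* was well above background on no array.

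**Figure D3:**
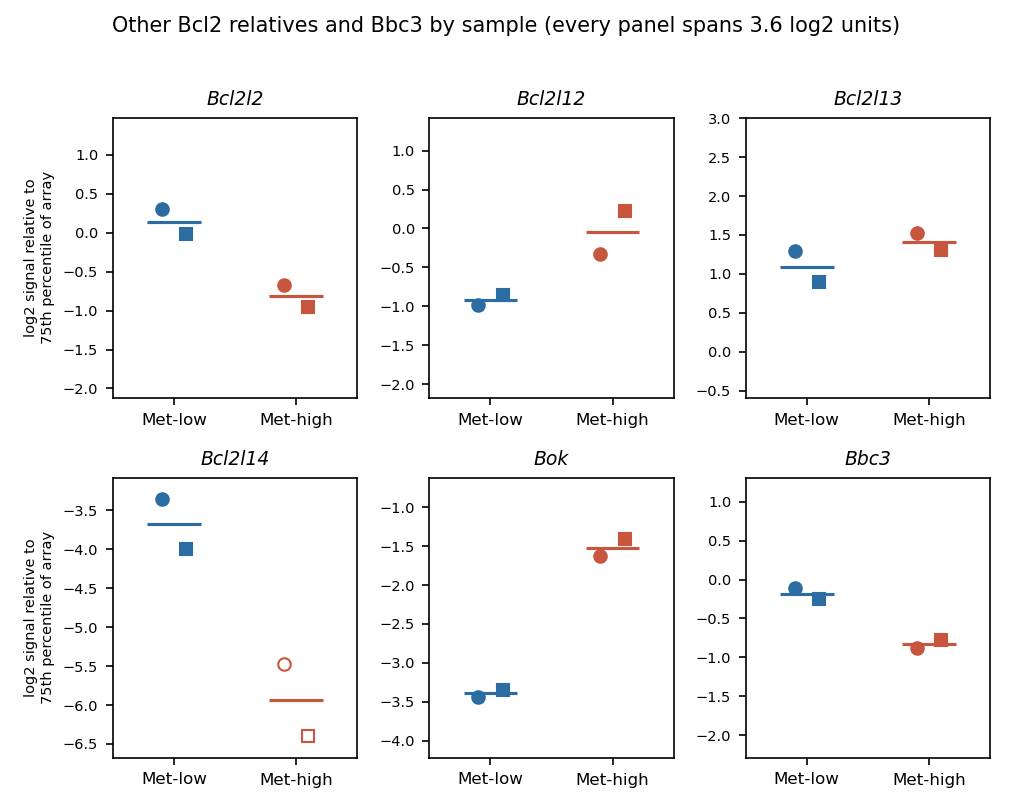
Log2 signal (y axis, relative to the 75th percentile of the array) of the 5 *Bcl2* relatives outside the members that passed the filter, and of *Bbc3*, by population, with symbols as in the plot of the member probes. In *Bok* the Met-high arrays at -1.63 and -1.41 stand clear of the Met-low arrays at -3.44 and -3.34, and the open symbols of *Bcl2l14* mark Met-high arrays not well above background.

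The other relatives that passed the filter were *Bcl2l2*, *Bcl2l12* and *Bcl2l13*. *Bcl2l2* (Bcl-w), an anti-apoptotic gene named here because the whole list is shown, was at 0.30 and -0.02 in Met-low against -0.68 and -0.95 in Met-high cells. Its log2 ratio of -0.95 narrowly missed the threshold (adjusted p = 0.0600, limma), and its other probe gave -0.81. It passed after normexp background correction (adjusted p = 0.0436), with a trend in eBayes (0.0385) and without Met-high replicate 1 (0.0480). Among genes of the lists, the 4 array values of *Bcl2l12* lay nearest to those of *Bak1*, the most changed member, with a root mean square distance of 0.09 on the log2 scale after the mean of each gene was subtracted. The log2 ratio of *Bcl2l12* was 0.87 (adjusted p = 0.0974), which passed without Met-high replicate 1 (adjusted p = 0.0323). Next nearest of 52 genes was *Ripk1*, a kinase of the death receptor complex, at a distance of 0.16 and with a log2 ratio of 0.40 (adjusted p = 0.350).

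Of 6 other BH3-only and BH3-like genes that passed the filter, none was called. *Bbc3* (Puma), a p53 target and a potent BH3-only gene, was at -0.11 and -0.25 in Met-low and at -0.87 and -0.78 in Met-high cells, with a ratio of -0.64 on the log2 scale (adjusted p = 0.0843, limma). *Bnip3l*, known for the removal of mitochondria, had -0.56 (adjusted p = 0.158) and its 4 probes gave ratios between -0.62 and -0.47. Of the other IAP genes, 4 passed the filter and none was called. *Birc5* (survivin), which serves mainly in chromosome segregation, had a log2 ratio of 0.41 (adjusted p = 0.190) with 0.30 and 0.48 from its other probes, and *Naip2* had -0.51 (adjusted p = 0.166), in a family of near-identical copies whose probes may share targets.

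Of 5 antagonists of IAPs, 3 passed the filter. These 3 had higher means in Met-high cells, as 59.5% of all genes did, though none passed the adjusted p. *Diablo* (Smac), which displaces Xiap from caspases, was at 1.52 and 1.60 in Met-low and at 1.92 and 2.12 in Met-high cells, with a difference of 0.46 on the log2 scale (adjusted p = 0.163, limma). *Htra2*, a protease with the same IAP-binding role, was at 4.98 and 4.92 in Met-low and at 5.32 and 5.38 in Met-high cells, with a difference of 0.40 (adjusted p = 0.186). In both genes the Met-high arrays were above the Met-low arrays, as in 35.7% of all genes. The other probes gave 0.22 for *Diablo* and 0.47 for *Htra2*. The 3 genes of this list that passed the filter had log2 ratios from 0.09 to 0.46, with a median of 0.40, beside 0.10 for all genes. For comparison, the inhibitors *Xiap* and *Birc2* had -0.22 and -0.12, as given above. Of the 4 other IAP genes that passed the filter, 1 had a higher and 3 a lower mean in Met-high cells. Whether inhibitors and antagonists differed was not tested.

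Among 9 genes of the apoptosome and caspases that passed the filter, 5 had a higher and 4 a lower mean in Met-high cells, and none was called. *Casp9*, the caspase of the apoptosome, had a log2 ratio of 0.48 (adjusted p = 0.162, limma). Of 8 genes of death receptors and adaptors none was called, and in 7 the Met-high mean was the higher one, as it was in 59.5% of all genes. *Traf2*, the adaptor that recruits Birc2 to receptor complexes, had a log2 ratio of 0.78 (adjusted p = 0.0765), but its other probe gave -0.06. The brightest probe of *Traf2* passed after normexp background correction (adjusted p = 0.0450, limma) and with a trend in eBayes (0.0406). *Cyld*, a deubiquitinase, was at -1.11 and -2.16 in Met-low and at -1.80 and -3.47 in Met-high cells (adjusted p = 0.360), with overlapping arrays and a log2 ratio that went from -0.16 without Met-high replicate 2 to -1.84 without Met-high replicate 1 (adjusted p = 0.0288). Of 6 death effectors, *Endog*, a mitochondrial nuclease, was at 0.13 and 0.72 in Met-low and at 1.34 and 2.00 in Met-high cells. Its log2 ratio of 1.25 (standard error 0.31) was above 2-fold, did not pass the adjustment (adjusted p = 0.0854), and passed without Met-low replicate 2 (0.0318) or Met-high replicate 1 (0.0188). *Aifm1*, a flavoprotein released from mitochondria in cell death, had 0.57 (adjusted p = 0.123). Of 11 mitochondrial partners none was called, the largest ratios being 0.54 for the co-chaperone *Bag3* (adjusted p = 0.120) and -0.53 for the fission gene *Dnm1l* (adjusted p = 0.312).

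**Figure D4:**
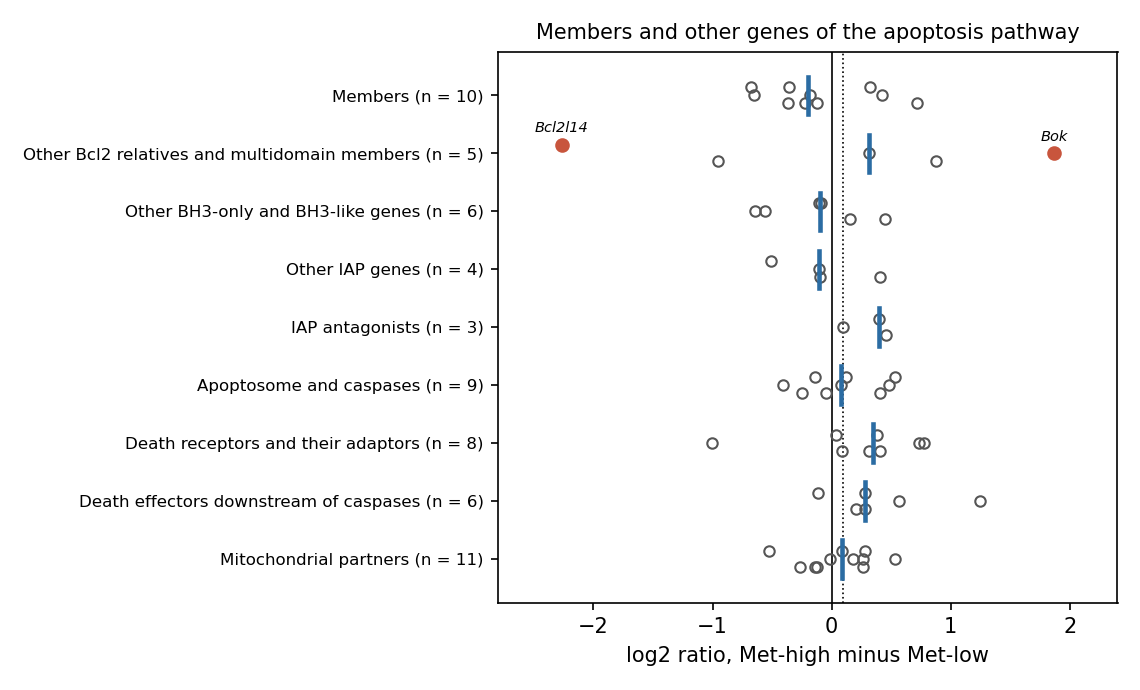
Log2 ratio, Met-high minus Met-low (x axis), of the 10 members and of the 52 other pathway genes that passed the filter, by list, with bars for the median of each list, a dotted line for the median of all genes at 0.10 and filled points for genes at an adjusted p under 0.05. *Bok* and *Bcl2l14* are the filled points, and the median of the members lies at -0.20.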

How the data were processed

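RNA of 2 Met-low and 2 Met-high samples was measured on Agilent 4-array slides. The authors deposited the output of Feature Extraction (version 11.0.1.1 in the file headers, 10.7.3.1 in the submitters' processing notes), in which each spot has a background-corrected intensity on a linear scale. They also deposited a table of log2 values, which the methods describe as scaled to the 75th percentile of each array and centred on the median of each gene. Its differences between arrays matched those of the scanner intensities within 0.01 for 100% of probes (rounded), with column medians of 0.15, -0.04, 0.04 and -0.12, so scale and direction are settled and the Lowess step could not be seen.

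Here the deposited intensity was floored at 0.01 (0 spots changed), log2-transformed, and the array's 75th percentile over spots other than controls was subtracted. Between 207 and 232 spots per array with outlier flags were left out, which affected 11 genes compared and no member, and 0 spots were saturated. Probes were named through RefSeq accessions (GRCm38.p6, names only), which matched 27427 of 39429. Each gene was represented by its probe with the highest mean, and kept if both arrays of 1 population or the other were well above background. Limma 3.58.1 in R 4.3.3 (lmFit, eBayes) gave two-sided p-values, adjusted by Benjamini-Hochberg over 11958 genes or 19796 probes. The fit was also run on simulated data with independent noise, which cannot show how it performs where replicates vary together. Intervals are not adjusted for the number of genes. With 2 arrays against 2, no permutation of the arrays can reach a p of 0.05. Figures were drawn with matplotlib 3.10.9. Named are all members, every gene called and the 2 with the largest ratios in each pathway list, the 2 list genes nearest to the most changed member, and *Met*, except for a gene that is not reported here. Members, lists and tests were chosen with earlier results of these data known. Alternatives covered the background, scaling, filter, flags, probes, variance model, arrays left out, a replicate block and the authors' values. They also included Student's t-test and a 2-fold selection. The methods name the t-test for comparisons of 2 groups in general, and only the 2-fold selection for the arrays.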

Additional observations from a re-analysis of the deposited data

How the results depend on the processing

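None of the 10 members was called under any alternative with limma that kept every array and did not pair them (lowest and highest count 0 and 0, also by probe). Student's t-test after Benjamini-Hochberg adjustment called none either. Without adjustment this t-test called 1 of 10 members (*Birc2*) and 2 of 12 member probes (*Birc2*, *Mcl1*). The shares were 18.5% of all genes and 16.8% of all probes. Among the members, the genes named from the lists, *Met*, *Mitf*, *Col1a2* and *Itgam*, the sign of the log2 ratio held in each alternative that gave a value, except that *Birc2* became 0.015 after quantile normalization. *Bcl2l11* and *Bcl2l14* gave no value over genes well above background on all arrays. The number of pathway list genes called, 2 as reported, was 0 without a filter on dim probes, 1 over genes well above background on all arrays, 3 with normexp, 4 with a trend in eBayes, 4 by a 2-fold difference without a test, 0 by the methods' t-test with adjustment and 13 without, and between 2 and 6 with an array left out, the highest without Met-high replicate 1. Taking the 75th percentile over detected probes alone shifted the median over all genes from 0.10 to -0.05 and the members' median from -0.20 to -0.35. With that scaling, 140 genes were higher in Met-high cells and 595 lower, against 233 and 457 as reported, 392 and 539 with a trend in eBayes, and 155 and 437 without Met-low replicate 1. Without a filter the counts were 0 and 7.

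The labels number the samples 1 and 2 in each population without saying that a number marks a shared preparation. Across genes, replicate 1 minus replicate 2 in Met-low correlated with the same difference in Met-high cells (r = 0.54). With the replicate block, limma called 3 of the 10 members (*Bak1*, *Bmf* and *Bid*) and 15 of the 52 pathway list genes. Calls were as frequent among all 11958 genes compared, with 1976 called higher in Met-high and 1580 called higher in Met-low cells. The 3 calls are therefore not particular to the members. By probe, the block called 2 of the 12 member probes, of *Bmf* and *Mcl1*. The share over all probes was not computed with the block, so these 2 have no comparison. Signal over background limits *Bcl2l11* and *Bcl2l14*, for which only bounds are given, and these were not tested.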
